A study of Homo sapiens with 6 samples.

Results

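Messenger RNA of 10 mucin genes was followed in 2 human gastric cancer lines: 6 membrane mucins (MUC1, MUC4, MUC12, MUC13, MUC16 and MUC20) and 4 secreted gel-forming mucins (MUC2, MUC5AC, MUC5B and MUC6). The genes were taken by symbol, and each of the 10 matched 1 of the 51103 genes in the deposited tables. AGS comes from a gastric adenocarcinoma and HGC-27 from an undifferentiated gastric carcinoma. Each line had been infected with a lentivirus for overexpression of NINJ1, a cell surface protein of plasma membrane rupture, or carried a negative control, and polyadenylated RNA was sequenced from cells lysed 48 hours later. The groups were the AGS libraries labelled NINJ1 (n = 2), the AGS negative control (n = 1), HGC-27 NINJ1 (n = 2) and the HGC-27 negative control (n = 1). The promoter that drove the transgene, the number of clones and the origin of the replicates were not given in the sources used here, so every p-value measures only the spread between these libraries.

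Mucins are large glycoproteins whose backbones carry stretches rich in serine, threonine and proline, often as tandem repeats, to which sugar chains are attached. The secreted members polymerise into mucus: MUC5AC is the main gel-former of the gastric surface epithelium, MUC6 of the gastric glands, MUC2 of intestinal goblet cells and MUC5B of airway and salivary glands. The membrane members span the plasma membrane, form the glycocalyx and can shed their outer parts, as MUC16 does with the CA125 antigen and MUC1 with the CA15-3 antigen.

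Titles and file names put the second NINJ1 library of each line in opposite lines, and lines are given here as in the file names. Line-marking genes were those with 100 counts or more in each undisputed library of a line and 0 in each of the other line. Of 15 that marked HGC-27, the library file-named AGS had at least 10 counts in 0 and the library file-named HGC-27 in 15. Of 13 that marked AGS, the library file-named AGS had counts in 13 and the one file-named HGC-27 in 0. With the lines as in the titles, 0 of 8 tested mucins passed edgeR's test in any of the 4 comparisons (12.2% of all genes passed for HGC-27 NINJ1 against its control, and 0% in the others), and at most 2 had an unadjusted p under 0.05. Without the disputed AGS library 3 mucins passed in AGS in place of 4, and without the disputed HGC-27 library 6 passed in HGC-27, as with it. NINJ1 itself stood at 20.7 and 16.6 CPM (the count scaled to library size) in the AGS libraries labelled NINJ1, against 28.8 CPM in the AGS control, which goes against the label (log2 -0.68, edgeR quasi-likelihood adjusted p = 0.0148). In HGC-27 NINJ1 libraries it stood at 18.2 and 19.9 CPM, against 3.91 CPM in the HGC-27 control (log2 1.89, edgeR adjusted p = 3.22e-08, and log2 0.58 after GC correction). Library totals ran from 12619684 to 18175697 counts. The HGC-27 control stood apart from the other 5 libraries: its genes of over 65% GC content had a median deviation of -2.38 log2 units from their mean over all libraries, where the other libraries had deviations of 0.20 to 0.78. Of 5 epithelial markers, KRT8, KRT18 and EPCAM were above 1 FPKM (the authors' count per gene length and library total) in every library, KRT19 was at or near 0 and CDH1 was at most 0.454 FPKM, while of 5 mesenchymal markers 3 or 4 were above 1 FPKM. The summed markers of leukocytes (0.203 to 1.45 FPKM) and endothelium (0.0825 to 0.506 FPKM) were low. The 5 fibroblast markers summed to 3.82 and 3.28 FPKM in the AGS libraries labelled NINJ1 against 10.9 FPKM in the AGS control, and to 5.42 and 5.80 FPKM in HGC-27 NINJ1 libraries against 1.10 FPKM in the HGC-27 control. COL1A1 was the highest of them in every library, and COL3A1, DCN and LUM were at most 0.163 FPKM. PDGFRB stood at 0.777 and 0.707 FPKM in the AGS libraries labelled NINJ1 against 3.90 FPKM in the AGS control, and at or below 0.0652 FPKM in HGC-27. The part of these markers in the mucin results was not tested.

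The mucin genes differ in composition. By GENCODE 29 on GRCh38, MUC1 (ENSG00000185499) lies at chr1:155185824-155192916 on the minus strand, and its longest transcript has a GC content of 71.2%. MUC13 (ENSG00000173702, chr3:124905442-124953819, minus strand) has 44.7%, and MUC16 (ENSG00000181143, chr19:8848844-8981342, minus strand) has 50.3%. The secreted mucins form a cluster on chromosome 11, with MUC6 (ENSG00000184956) at chr11:1012821-1036706 on the minus strand, and MUC2 (ENSG00000198788, chr11:1074875-1110511), MUC5AC (ENSG00000215182, chr11:1157953-1201138) and MUC5B (ENSG00000117983, chr11:1223066-1262172) on the plus strand. Their longest transcripts have GC contents between 60.3% and 64.5%. Within a gene's longest transcript, stretches of 50 bases that occurred more than once made up 61.5% of all such stretches in MUC12, 42.4% in MUC1, 29.2% in MUC5B, 28.3% in MUC4, 21.4% in MUC2 and in MUC5AC, and 19.7% in MUC20, but 1.76% in MUC6, 1.07% in MUC16 and 0% in MUC13. The repeat of MUC1 has a unit of 60 bases, present in 19 exact copies in GENCODE 29 transcript MUC1-223 and first at base 534. It is shown for its GC content of 81.7%, above that of the whole transcript.
MUC1 repeat unit: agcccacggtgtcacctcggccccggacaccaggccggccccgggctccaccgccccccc

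The promoters of MUC13 and MUC1, the leading pair of mucins per length in 5 of the 6 libraries, also differ in GC content, and both are shown because these genes changed in different ways between libraries. Each window covers 250 bases before and 50 bases after the start site in RefSeq on GRCh38.p14, on the minus strand, with capitals marking every match, on either strand, to 6 motifs. The letters searched were GGGCGG for the GC box and CANNTG for the E-box. They were TGANTCA for the site of AP-1 and TATAAA for the box of TATA-binding protein, written TATA box here. The CCAAT box was searched by the letters of its name, and the STAT site by TTCNNNGAA.
MUC1, chr1:155192866-155193165: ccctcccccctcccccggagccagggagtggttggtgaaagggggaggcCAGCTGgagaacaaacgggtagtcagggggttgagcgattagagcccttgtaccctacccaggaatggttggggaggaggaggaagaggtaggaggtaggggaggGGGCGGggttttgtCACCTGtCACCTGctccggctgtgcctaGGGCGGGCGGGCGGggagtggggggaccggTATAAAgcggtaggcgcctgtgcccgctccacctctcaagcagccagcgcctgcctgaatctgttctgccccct
MUC13, chr3:124934702-124935001: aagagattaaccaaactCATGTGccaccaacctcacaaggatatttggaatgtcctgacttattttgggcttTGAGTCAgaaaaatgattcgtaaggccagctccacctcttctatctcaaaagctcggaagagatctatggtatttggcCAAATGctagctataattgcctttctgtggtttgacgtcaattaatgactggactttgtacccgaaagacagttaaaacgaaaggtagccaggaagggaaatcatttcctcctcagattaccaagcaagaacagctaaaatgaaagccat
The MUC1 window has a GC content of 65.7%, with 4 GC boxes (3 of them overlapping), 3 E-boxes and 1 TATA box. The MUC13 window has a GC content of 41%, with 2 E-boxes and 1 AP-1 site. Among 35116 RefSeq promoter windows of this length, 45% held a GC box, 68.7% an E-box, 11.5% a TATA box, 7.71% an AP-1 site, 34.6% a CCAAT box and 7.66% a STAT site. The median GC content of these windows was 58.7%. The RefSeq start of MUC13 lies inside the GENCODE 29 gene, and those of MUC16 lie 29067 and 84409 bases upstream of it, so the MUC16 count covers a shorter gene model than RefSeq gives. RefSeq windows were found for 6 of the 10 genes.

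By FPKM, nearly all mucin mRNA of both lines was membrane mucin mRNA, and most of it was MUC13, a membrane mucin of gastric and intestinal epithelium. MUC13 stood at 103 and 92.2 FPKM in the AGS libraries labelled NINJ1, against 99.5 FPKM in the AGS control. In HGC-27 it stood at 43.2 and 41.0 FPKM in NINJ1 libraries, against 59.4 FPKM in the control. These levels lay above those of 98.1% to 99.6% of all genes in the same library. MUC13 made up 91.0% and 90.3% of the summed FPKM of the 10 mucins in the AGS libraries labelled NINJ1, against 76.2% in the AGS control, and 72.5% and 71.0% in HGC-27 NINJ1 libraries, against 74.9% in the HGC-27 control. The 6 membrane mucins together exceeded the 4 secreted mucins 151-fold and 202-fold in the AGS libraries labelled NINJ1, against 127-fold in the AGS control. In HGC-27 the ratio was 67.7-fold and 78.8-fold in NINJ1 libraries, against 83.0-fold in the control. FPKM carries no GC correction, and GC-rich genes were low in the HGC-27 control. There GC correction moved MUC1 from 30.1 to 214 CPM and MUC13 from 260 to 215 CPM. It moved MUC5AC from 12.7 to 35.6 CPM and MUC5B from 7.37 to 30.8 CPM. The MUC13 share and the ratio of the HGC-27 control are therefore uncertain.

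**Figure D1:**
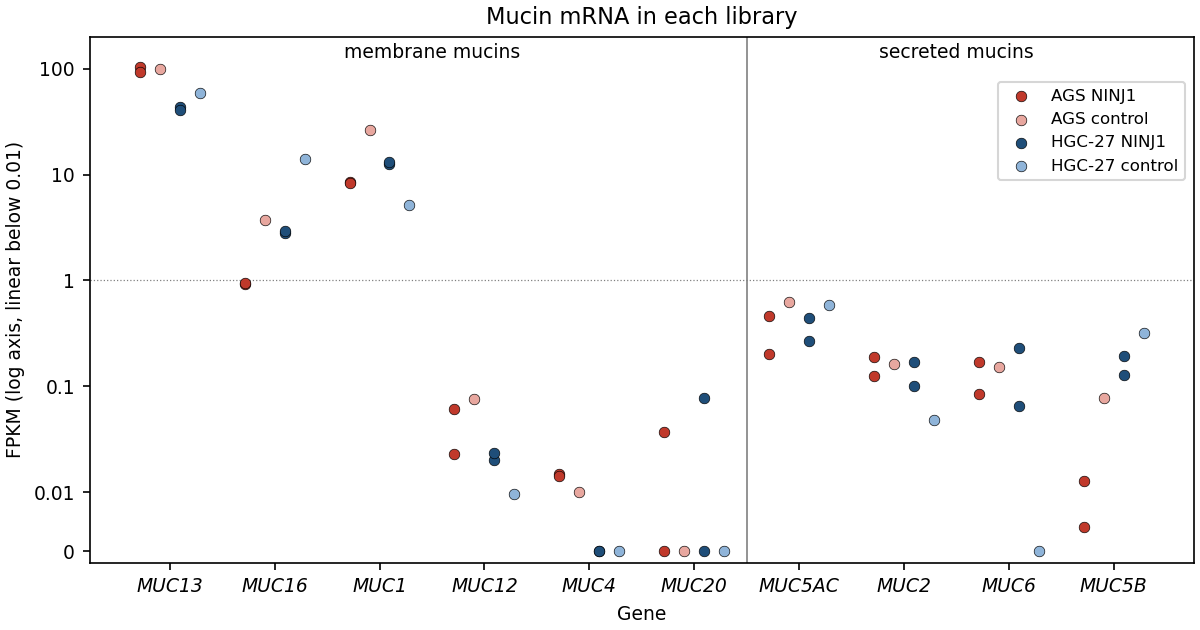
FPKM (log axis, linear below 0.01) of the 10 mucins, with 1 point per library, coloured by line and by the label NINJ1 or control; the dotted line is 1 FPKM. MUC13, MUC1 and MUC16 lie near or above 1 FPKM, and every secreted mucin lies below it in all 6 libraries.

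MUC1 and MUC16 followed MUC13 per length. MUC1, which is known for signalling through its cytoplasmic tail, stood at 8.42 and 8.32 FPKM in the AGS libraries labelled NINJ1, against 26.3 FPKM in the AGS control, and at 12.7 and 13 FPKM in HGC-27 NINJ1 libraries, against 5.10 FPKM in the HGC-27 control. MUC16, the largest of the membrane mucins, stood at 0.931 and 0.950 FPKM in the AGS libraries labelled NINJ1, against 3.70 FPKM in the AGS control, and at 2.83 and 2.90 FPKM in HGC-27 NINJ1 libraries, against 13.9 FPKM in the HGC-27 control. MUC1 was thus the second mucin per length in 5 libraries, and MUC16 was second in the HGC-27 control. In read counts the order differed, because the authors' FPKM for MUC16 used a length of 43830 bases and that for MUC1 used 4717 bases. The AGS libraries labelled NINJ1 held 515 and 553 reads of MUC16 and 501 and 521 reads of MUC1, near-equal counts with FPKM values that were far apart.

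**Figure D2:**
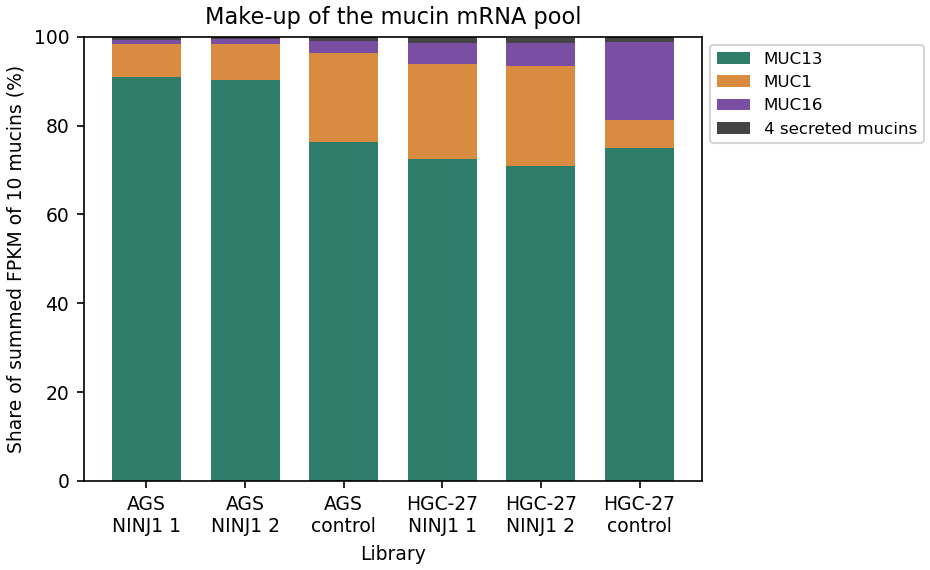
Stacked bars of the share (%) of the summed FPKM of the 10 mucins taken by MUC13, MUC1, MUC16 and the 4 secreted mucins, with 1 bar per library; the membrane mucins MUC4, MUC12 and MUC20 are too low to see. MUC13 holds 91.0% and 90.3% in the AGS libraries labelled NINJ1 and 71.0% to 76.2% in the other 4, and MUC16 holds 17.5% in the HGC-27 control.

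Of the other membrane mucins, MUC4 and MUC20 were at or near the floor, while MUC12 was near it in HGC-27 but reached 18 counts in AGS. The floor was taken as 3 counts per library, the mean that a count of 0 allows by counting error alone. MUC4, a partner of the receptor ERBB2, had 4 counts in each AGS library labelled NINJ1 against 3 counts in the AGS control, and 0 counts in all 3 HGC-27 libraries. MUC20, known to bind the MET receptor, had 2 and 0 counts in the AGS libraries labelled NINJ1 against 0 in the AGS control, and 0 and 5 counts in HGC-27 NINJ1 libraries against 0 in the HGC-27 control. The gene shares 1820 exonic bases on the same strand with MUC20-OT1, which had 80 to 242 counts, so its reads are uncertain. MUC12, an intestinal membrane mucin, had 5 and 14 counts in the AGS libraries labelled NINJ1 against 18 in the AGS control, and 5 and 6 counts in HGC-27 NINJ1 libraries against 3 in the HGC-27 control. All 3 genes stayed below 0.1 FPKM in every library.

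None of the 4 secreted mucins reached 1 FPKM in any library, and MUC5AC was the most abundant of them in count. MUC5AC had 101 and 47 counts in the AGS libraries labelled NINJ1 against 152 in the AGS control, and 111 and 70 counts in HGC-27 NINJ1 libraries against 184 in the HGC-27 control. Its level was 0.203 to 0.625 FPKM over all 6 libraries. MUC2 had 30 and 21 counts in the AGS libraries labelled NINJ1 against 29 in the AGS control, and 31 and 19 counts in HGC-27 NINJ1 libraries against 11 in the HGC-27 control. MUC6 had 9 and 19 counts in the AGS libraries labelled NINJ1 against 18 in the AGS control, and 8 and 29 counts in HGC-27 NINJ1 libraries against 0 in the HGC-27 control. The 2 libraries of a NINJ1 group differed by a factor of over 2 for MUC5AC in AGS and by over 3 for MUC6 in HGC-27, so these counts have wide replicate error. MUC5B had 3 and 1 counts in the AGS libraries labelled NINJ1 against 20 in the AGS control, and 52 and 36 counts in HGC-27 NINJ1 libraries against 107 in the HGC-27 control. MUC5B was thus at or under the floor in 2 AGS libraries and above it in the other 4 libraries, and MUC6 was under it in the HGC-27 control.

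In AGS, MUC16, MUC1, MUC5B and MUC5AC fell in the libraries labelled NINJ1 relative to the control, and MUC13 did not pass the test. A filter on low counts kept 8 of the 10 mucins, leaving out MUC4 and MUC20, among 17617 genes tested with edgeR's quasi-likelihood test. Of these 8, 4 were lower and 0 higher at an adjusted p (Benjamini-Hochberg) under 0.05, where 15.0% of all genes tested passed, 9.30% lower and 5.73% higher. With GC correction 3 were lower and 0 higher, where 18.6% passed. The 4 that fell were 2 of 4 tested membrane mucins and 2 of 4 secreted ones. The median log2 change was -1.29 over the tested membrane mucins and -0.64 over the secreted ones, against 0.00 over all genes tested. In bulk RNA, fewer cells that express a gene and less of its RNA per cell cannot be told apart.

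MUC16 was 4.08-fold lower in the AGS libraries labelled NINJ1 than in the AGS control (log2 -2.03, SE 0.13, edgeR adjusted p = 1.9e-13). After correction of each library for GC content its log2 change was -2.04. Among the 2757 tested genes of 50% to 55% GC content, 2.72% had a lower log2 change. MUC1 was 3.26-fold lower (log2 -1.70, SE 0.14, edgeR adjusted p = 8.42e-11). Its GC-corrected change was smaller, at log2 -1.03 (edgeR adjusted p = 5.22e-06). Among the 59 tested genes of 70% to 75% GC content, whose median was -0.70, 1.69% lay lower than MUC1. The 2 libraries labelled NINJ1 lay close together and far below the control for both genes.

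MUC5B was 9.15-fold lower in the AGS libraries labelled NINJ1 (log2 -3.19, SE 0.74, edgeR adjusted p = 0.00245), on 4 summed counts against 20 in the control. The ratio of counts per scaled library size was 0.104, with an exact 95% interval of 0.0258 to 0.31 that covers counting error alone. DESeq2 gave no adjusted p for it in AGS. Its log2 change was -2.61 (edgeR adjusted p = 0.0358) without the second library labelled NINJ1 and -4.14 without the first. MUC5AC was 1.97-fold lower (log2 -0.98, SE 0.31, edgeR adjusted p = 0.0307), but the call was lost after GC correction (adjusted p = 0.0887), with DESeq2 (adjusted p = 0.247) and without the second library labelled NINJ1 (log2 -0.51, edgeR adjusted p = 0.442, against -1.66 without the first). MUC13 gave a log2 change of -0.08 (SE 0.13, edgeR adjusted p = 0.711). The AGS control lay between both libraries labelled NINJ1 in FPKM, but above both in CPM scaled by TMM (343 against 339 and 308 CPM). MUC2 (-0.13), MUC6 (-0.31) and MUC12 (-0.87) had edgeR adjusted p-values of 0.904, 0.828 and 0.523 in that order. The single control has no replicate and was assumed to vary like the NINJ1 pairs.

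**Figure D3:**
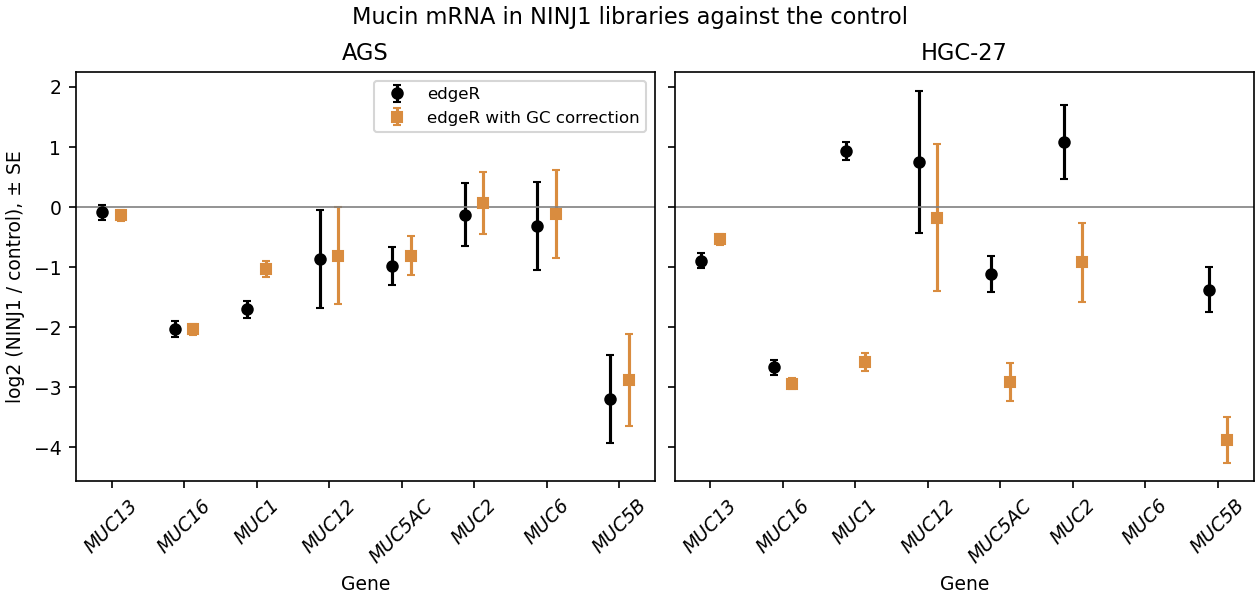
Log2 change (NINJ1 over control, points, with SE bars) of the 8 tested mucins in AGS, left, where NINJ1 means the libraries so labelled, and HGC-27, right, from edgeR with and without GC correction; MUC6 is not drawn in HGC-27, where the control had 0 counts. In AGS both versions lie close together except for MUC1 (-1.70 and -1.03), and in HGC-27 MUC1 lies at 0.94 without and -2.58 with the correction.

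In HGC-27, MUC16, MUC13, MUC5AC and MUC5B fell in NINJ1 libraries relative to the control, with and without GC correction, while the direction of MUC1 depended on that correction. Of the 8 tested mucins, 4 were lower and 2 higher, where 63.0% of all genes tested passed, 29.1% lower and 34.0% higher. The mucins' share of 6 in 8 is read against that large background, which includes whatever else set the HGC-27 control apart. With GC correction 5 were lower and 0 higher, against 49.2% of all genes passing. The median log2 change of the 8 was -0.07, and -1.75 with GC correction, against 0.12 and 0.00 over all genes tested.

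MUC16 had 1799 and 1911 counts in HGC-27 NINJ1 libraries against 11053 in the HGC-27 control, a 6.37-fold lower level after scaling (log2 -2.67, SE 0.12, edgeR adjusted p = 3.97e-18). Its GC-corrected log2 change was -2.94. Among the 2757 tested genes of 50% to 55% GC content, whose median was 0.57, 0.725% had a lower log2 change. MUC13 had 2187 and 2159 counts in HGC-27 NINJ1 libraries against 3780 in the HGC-27 control and was 1.86-fold lower (log2 -0.89, SE 0.12, edgeR adjusted p = 1.55e-07). Its class of 40% to 45% GC content had a median of -0.57, and 32.7% of the class lay lower than MUC13. The GC-corrected log2 change of MUC13 was -0.54 (edgeR adjusted p = 6.31e-05). Both NINJ1 libraries lay below the control for MUC16 and for MUC13.

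MUC1 had 865 and 923 counts in HGC-27 NINJ1 libraries against 437 in the HGC-27 control, and both NINJ1 libraries lay above it. On these counts it was 1.91-fold higher (log2 0.94, SE 0.16, edgeR adjusted p = 3.59e-06), but the median log2 change of the 59 tested genes of 70% to 75% GC content was 5.12, and 8.47% of them lay lower than MUC1. With GC correction MUC1 was 5.98-fold lower (log2 -2.58, edgeR adjusted p = 8.33e-13). The correction did not centre its GC class, whose 59 genes kept a median of 1.60 (quartiles -0.51 and 6.23), so the size of the corrected change is uncertain. Its GC-corrected level was 39.8 and 31.9 CPM in HGC-27 NINJ1 libraries, against 214 CPM in the HGC-27 control. What part the composition of the control library had in the uncorrected change was not tested beyond this correction.

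MUC5AC was 2.17-fold lower (log2 -1.12, SE 0.30, edgeR adjusted p = 0.00174) and MUC5B 2.59-fold lower (log2 -1.37, SE 0.38, edgeR adjusted p = 0.00205) in HGC-27 NINJ1 libraries than in the HGC-27 control. Genes of their class, 60% to 65% GC content, had a median log2 change of 2.35, and 1.03% of them lay below MUC5AC and 0.648% below MUC5B. With GC correction the log2 changes were -2.92 for MUC5AC and -3.88 for MUC5B. DESeq2 without that correction gave adjusted p = 0.0509 for MUC5AC and 0.102 for MUC5B. MUC6, with 37 summed counts against 0, passed the test (edgeR adjusted p = 0.00137), but not with GC correction (adjusted p = 0.0707). With the control set to 3 counts, the library with 8 counts was at least 2.53-fold and that with 29 counts at least 8.91-fold higher. The exact 95% lower bound of the summed ratio was 4.46. These bounds carry no GC correction. MUC6 lies in the same GC class, so a rise of MUC6 beyond the class median of log2 2.35 is uncertain. MUC2 gave log2 1.08 (edgeR adjusted p = 0.127) and -0.92 with GC correction, and MUC12 gave 0.75 (edgeR adjusted p = 0.594) and -0.17.

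**Figure D4:**
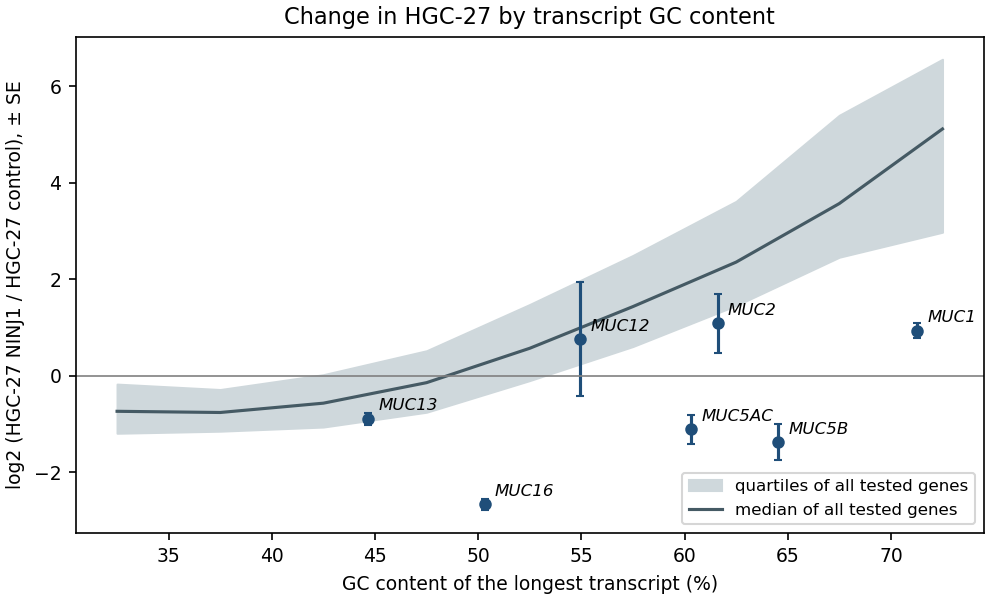
Log2 change in HGC-27 (NINJ1 over control, points with SE bars) of 7 tested mucins against the GC content (%) of the longest transcript, over the median (line) and quartiles (band) of all tested genes in GC classes. The median of all genes climbs to 5.12 at 70% to 75% GC, and the points of MUC1, MUC16, MUC2, MUC5AC and MUC5B lie below the band, MUC1 at 0.94 and MUC16 at -2.67.

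The changes differed between the lines for MUC13, MUC16, MUC1 and MUC6, by the test of the AGS change minus the HGC-27 change. Of the 8 tested mucins, 2 had a higher and 2 a lower change in AGS, where 54.2% of all genes tested passed, 23.9% higher and 30.2% lower. With GC correction 4 were higher and 0 lower, where 35.2% passed. MUC16 fell in both lines, with log2 changes of -2.03 in AGS and -2.67 in HGC-27, and the difference of 0.64 (SE 0.18, edgeR adjusted p = 0.00337) was 0.90 with GC correction. MUC13 differed by 0.81 (SE 0.18, edgeR adjusted p = 0.000282), and by 0.40 with GC correction (edgeR adjusted p = 0.0273). Without the correction its GC class had a median difference of 0.65, and 58.2% of the class lay lower than MUC13. MUC1 differed by -2.64 (SE 0.21, edgeR adjusted p = 2.65e-12), and by 1.55 with GC correction (edgeR adjusted p = 1.96e-06), so the sign of its difference turned, in a GC class that kept a median of -1.73 after the correction. The difference of MUC6 rested on the HGC-27 control at 0 counts and did not pass with GC correction (edgeR adjusted p = 0.11). MUC5AC had a difference of 0.14 (edgeR adjusted p = 0.819), and of 2.11 with GC correction (edgeR adjusted p = 0.000914), and MUC5B had one of -1.82 (edgeR adjusted p = 0.0718). On FPKM with limma the difference of MUC13 did not pass (log2 0.46, adjusted p = 0.0581 with a pseudocount of 1), nor that of MUC16 with a pseudocount of 0.1 (log2 0.37, adjusted p = 0.241).

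Between the lines, in the libraries labelled NINJ1, AGS had more MUC13 and less MUC16, MUC1 and MUC5B than HGC-27. This comparison uses no control library and has 2 libraries on each side, but it shares those libraries with the comparisons above. Of the 8 tested mucins, 1 was higher and 3 were lower in AGS, where 40.2% of all genes tested passed, 20.2% higher and 20.0% lower. With GC correction 1 was higher and 2 were lower, where 43.8% passed. MUC13 was 2.31-fold higher in AGS (log2 1.21, SE 0.11, edgeR adjusted p = 2.48e-11). MUC16 was 3.05-fold lower (log2 -1.61, SE 0.11, edgeR adjusted p = 7.12e-14). MUC5B, with 4 summed counts in AGS against 88 in HGC-27, was 18.3-fold lower (log2 -4.20, SE 0.58, edgeR adjusted p = 3.27e-07), with a ratio of counts of 0.0517 and an exact 95% counting interval of 0.0138 to 0.137. Without the second AGS library its log2 ratio was -3.61, and without the first it was -5.14. MUC1 was 1.54-fold lower (log2 -0.62, SE 0.12, edgeR adjusted p = 9.44e-05), a call that GC correction ended (log2 -0.25, edgeR adjusted p = 0.0848). MUC5AC had log2 -0.10 (SE 0.28, edgeR adjusted p = 0.798), which does not show equal levels. In an additive model over all 6 libraries MUC13 (log2 0.94, edgeR adjusted p = 0.0719) and MUC1 (0.21, edgeR adjusted p = 0.847) did not pass.

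**Figure D5:**
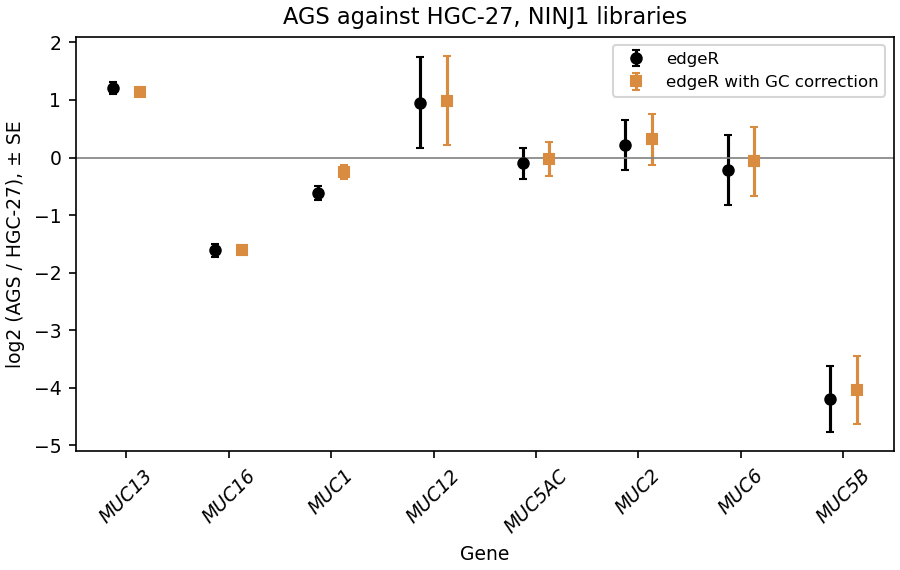
Log2 ratio of AGS to HGC-27 (points, with SE bars) of the 8 tested mucins in the libraries labelled NINJ1, n = 2 per line, from edgeR with and without GC correction. MUC13 lies at 1.21, MUC16 at -1.61 and MUC5B at -4.20, while MUC1 moves from -0.62 to -0.25 with the correction.

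The order of the 4 groups by level follows from these values. For MUC13 the AGS libraries labelled NINJ1 and the AGS control were highest and did not differ beyond their spread, the HGC-27 control came next and HGC-27 NINJ1 was lowest. For MUC16 the HGC-27 control was highest, then the AGS control, then HGC-27 NINJ1, and the AGS libraries labelled NINJ1 were lowest. The AGS control (3.70 FPKM) and HGC-27 NINJ1 (2.83 and 2.90 FPKM) are neighbours that differ in both line and label, so no test was made between them. For MUC1 in FPKM the AGS control was highest, then HGC-27 NINJ1, then the AGS libraries labelled NINJ1, and the HGC-27 control was lowest, a last place that GC correction turned into the first.

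The enzymes and partners of mucins were read beside them. Mesothelin (MSLN), the surface protein that binds MUC16, stood at 24.8 and 21.3 FPKM in the AGS libraries labelled NINJ1, against 67.9 FPKM in the AGS control. In HGC-27 it stood at 86.3 and 97.1 FPKM in NINJ1 libraries, against 2.97 FPKM in the control. It fell in AGS (log2 -1.61, edgeR adjusted p = 8.56e-11) and rose in HGC-27 (log2 4.55, edgeR adjusted p = 1.93e-18), also with GC correction (log2 -1.26 in AGS and 1.89 in HGC-27). In HGC-27 the correction did not centre GC-rich genes, which kept medians of 0.26 at 60% to 65% GC and 0.73 at 65% to 70%. The size of the corrected rise of MSLN is therefore uncertain. Among 15 partner genes of membrane mucins, all tested, 0 rose and 5 fell in AGS, where 15.0% of all genes were called (9.30% lower). Those that fell included the receptor ERBB3 (log2 -1.19) and the galectin LGALS3 (-0.79), which binds MUC1. With GC correction 1 rose and 4 fell in AGS, where 18.6% of all genes were called. In HGC-27, 5 were higher and 9 lower, against 63.0% of all genes called, and with GC correction 2 were higher and 10 lower, against 49.2%. RDX, which links membrane proteins to actin, fell by 1.51 log2 units (-0.79 with the correction), and CTNNB1, the beta-catenin that binds the MUC1 tail, by 1.25 (-0.80). The galectin LGALS1 (log2 0.72, and -1.13 with the correction) and the scaffold SLC9A3R1 (1.35, and -0.65) turned sign, and were named for this after their values were seen. Between the lines in the libraries labelled NINJ1, 5 of the 15 were higher and 4 lower in AGS, where 40.2% of all genes were called, among them EGFR (log2 1.04), MSLN (-2.00) and the sheddase MMP14 (-3.57).

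Of 20 GALNT genes, whose enzymes start mucin-type O-glycans, 14 were tested. In AGS 1 rose and 5 fell in the libraries labelled NINJ1, against 15.0% of all genes called. Those that fell included GALNT7 (log2 -0.88), GALNT13 (-2.05) and GALNTL6 (-2.90). Counts of GALNT13 (14 and 16 against 65 in the AGS control) and GALNTL6 (13 and 10 against 90) were low. DESeq2 gave neither an adjusted p. With GC correction 1 rose and 4 fell in AGS, where 18.6% of all genes were called. In HGC-27 4 rose and 6 fell, a share near the 63.0% of all genes, and with GC correction 1 rose and 6 fell, against 49.2%, including GALNT1 (log2 -1.55, and -0.84 with the correction). Between the lines in these NINJ1 libraries, 5 of the 14 were higher and 3 lower in AGS, where 40.2% of all genes were called. GALNT6 and GALNT3 had the smallest p. GALNT6 had 0 and 1 counts in the AGS libraries labelled NINJ1, against 192 and 196 counts in HGC-27 NINJ1 libraries. GALNT3 had 205 and 209 counts in AGS, against 28 and 23 in HGC-27 (log2 3.20, edgeR adjusted p = 7.1e-13). Both lines had higher counts of GALNT1 (2156 and 2046 in AGS, 2427 and 2147 in HGC-27). The same held for GALNT2 (1742 and 1809 in AGS, 2913 and 3213 in HGC-27). Of 15 genes that extend or cap O-glycans, 13 were tested, and in AGS, where 15.0% of all genes were called, 1 rose (GCNT3, log2 0.71) and 2 fell (ST6GALNAC4, -0.80, and B3GNT3, -0.58, the second not past the threshold with GC correction). In HGC-27 6 of the 13 rose and 3 fell, a share near the 63.0% of all genes, and with GC correction 4 rose and 1 fell, against 49.2%. The sialyltransferase ST3GAL4 was higher in AGS than in HGC-27 (log2 0.85), as was B3GNT3 (0.73), and the branching enzyme GCNT1 was lower (-0.97).

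Most genes of mucus-secreting cells were low. Of 19 such genes 16 stayed below 1 FPKM in every library, among them the trefoil factors TFF1, TFF2 and TFF3 with at most 1 count in any library and AGR2, a protein-folding factor of goblet cells, with 4 counts in the HGC-27 control and 0 in the other libraries. Only 5 of the 19 were tested. In AGS, where 15.0% of all genes were called, 0 of these 5 passed edgeR's test in either direction. Of these genes 0 had an unadjusted p under 0.05 and 0 passed with DESeq2, which gave no adjusted p for 3 of them. In HGC-27 all 5 were higher in NINJ1 libraries, where 34.0% of all genes were higher. With GC correction, where 23.0% of all genes were higher, 1 was, CREB3L4 (log2 2.26, and 1.54 with the correction). Of 10 further mucin genes, 9 stayed below 1 FPKM in every library and 3 were tested: MUC3A, MUC17 and OVGP1. In AGS, where 15.0% of all genes were called, 0 of these 3 passed edgeR's test, 0 had an unadjusted p under 0.05, and DESeq2 gave no adjusted p for them. In HGC-27, MUC3A (log2 3.01) and OVGP1 (1.62) were higher and MUC17 (-2.58) was lower in NINJ1 libraries, where 63.0% of all genes were called. Each was also past the threshold with GC correction, where 49.2% were called. Counts were low: the HGC-27 control had 6 for MUC3A and 10 for OVGP1, and the HGC-27 NINJ1 libraries had 15 and 4 for MUC17.

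The genes most like MUC13 over the 6 libraries, by Pearson correlation of log2 CPM, were HLCS (r = 0.999), NANP (r = 0.995) and PDE7A (r = 0.995). For MUC5AC they were ZSCAN16-AS1 (r = 0.991), AC005332.2 (r = 0.989) and WDPCP (r = 0.982). These values are descriptions, since the libraries fall into 2 lines and differ in library size and GC composition.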

How the data were processed

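Polyadenylated RNA of 6 libraries was sequenced. Per the file headers, the deposited tables give a raw read count and an FPKM for each of 51103 genes, 1 table per library. HISAT2, HTSeq 0.13.5 and GRCh38 are named in the submitters' processing notes, and the annotation release, strand setting and treatment of multiply placed reads are not given in the sources used here. Without a known strand setting, reads of a gene and its antisense partner cannot be told apart. The authors' FPKM was recomputed as count over gene length and library total, and for genes of 200 counts or more it departed by no more than 1.38e-07 of the value. Gene coordinates, GC content and repeats came from GENCODE 29, in which 51103 identifiers were found.

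Genes were kept by filterByExpr (minimum count 10), scaled by TMM and tested in edgeR 4.0.16 (R 4.3.3), two-sided. The model had 1 mean per line and label (4 groups, 2 residual degrees of freedom). Spread pooled over genes added 30.9 prior degrees of freedom, so each p-value rests mostly on that pooled spread. Benjamini-Hochberg adjusted p under 0.05 over all 17617 genes tested was the threshold. The standard error (SE) is that of the log2 change. CPM are scaled by TMM where a fold or GC correction is given. The GC correction subtracted, per library, a lowess curve (span 0.2) of each gene's deviation from its mean over GC content. The other alternatives were DESeq2 1.42.0, its size factors in edgeR, a fit with no filter, one on genes with a mean FPKM from 1 up, limma 3.58.1 on log2(FPKM + 1) and log2(FPKM + 0.1), lines as in the titles, an additive model of line and label, each library left out, and the replicate number as a block. The block combined with the GC correction was added after the data were seen. The test was run on simulated data with changes in the AGS libraries labelled NINJ1 alone, over 16343 genes. It recovered 37.9% of 2-fold and 87% of 4-fold changes for AGS against its control, 64.2% and 92% between the lines, and 7.37% and 64% for the difference of changes. Recovery in HGC-27 was not simulated. Intervals and floors cover counting error only, since reads carry no molecular identifiers.

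The 10 mucins are always named. Of each further list (GALNT enzymes, O-glycan extension, mucus-secreting cells, partners of membrane mucins, further mucins), up to 3 members with the smallest p per comparison are named, and the 3 genes most correlated with MUC13 and with MUC5AC. The trefoil factors, AGR2 and the marker genes were named for their levels after these were seen. The mucins and all lists were chosen with earlier results of these data known.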

Additional observations from a re-analysis of the deposited data

Results flagged for a closer look

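For 4 mucins the change with the NINJ1 label differed between the lines by edgeR's test of the AGS change minus the HGC-27 change, in log2 units, out of 8 tested. As 54.2% of all genes tested passed it (35.2% with GC correction), the count says nothing particular about mucins. The difference was 0.81 for MUC13 (adjusted p = 0.000282), which moved by -0.08 in AGS and by -0.89 in HGC-27. With GC correction it was 0.40. Without the correction, the GC class of MUC13 had a median difference of 0.65, and 58.2% of the class lay lower than MUC13. The difference was 0.64 for MUC16 (adjusted p = 0.00337), lower in both lines, and 0.90 with GC correction. It was -2.64 for MUC1 (adjusted p = 2.65e-12), and 1.55 with GC correction. It was -7.43 for MUC6 (adjusted p = 0.00389), a fitted value that rests on 0 counts in the HGC-27 control and is no measure of size. With GC correction the difference of MUC6 did not pass (edgeR adjusted p = 0.11). Each line has 1 control library, so the state of that library and the change itself cannot be told apart.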

How the results depend on the processing

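Of 428 values recomputed under 17 alternatives, 357 kept their direction and, where an adjusted p was given, their side of the threshold. Of the others 31 lost and 4 gained a call, and 36 changed sign. DESeq2 gave no adjusted p for 4 mucins in AGS, among them MUC5B, which edgeR called, and these were counted as kept. The number of mucins called was 4 in AGS, 6 in HGC-27, 4 between the lines and 4 for the difference of changes. With the lines as in the titles it was 0 in each of the 4, with 1, 2, 0 and 2 mucins at an unadjusted p under 0.05. In AGS it was 2 with DESeq2, a mean FPKM of at least 1 and both limma versions. In HGC-27 it was 3 with that minimum and both limma versions, where only 3 mucins were tested. Between the lines it was 2 in the additive model over all 6 libraries. For the difference limma gave 2 with a pseudocount of 1 and 1 with 0.1. Leaving out 1 library gave 3 to 4 in AGS, 6 to 6 in HGC-27, 4 to 4 between the lines and 4 to 5 for the difference. Libraries that a comparison does not use were also left out. They can move it only through filtering, scaling and the pooled spread, and such values are among the 428. The replicate numbers do not pair the libraries (the replicate differences of the lines correlated with r = 0.00841 across genes), and the replicate block gave 3, 6, 4 and 4 calls in these comparisons, with MUC5AC in AGS at adjusted p = 0.147.

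Signs changed as follows, in log2 units, and the cause was not tested. With GC correction MUC1 was -2.58 in HGC-27 and 1.55 for the difference, MUC2 0.068, -0.92 and 0.98 in AGS, HGC-27 and for the difference, MUC12 -0.17 in HGC-27 and MUC5B 1.00 for the difference. With the replicate block and GC correction together MUC1 was -2.56 in HGC-27 and 1.55 for the difference, MUC2 0.40 in AGS, -0.60 in HGC-27 and 1.00 for the difference, MUC12 -0.63 in HGC-27, MUC5B 0.97 for the difference and MUC6 0.0091 between the lines. With the block alone MUC2 was 0.17 in AGS. With the lines as in the titles MUC1 was 0.031, MUC16 0.024, MUC12 -0.80, MUC2 -0.041, MUC5AC 0.17 and MUC6 0.42 between the lines, and MUC13 -0.32 and MUC5B 1.92 for the difference. In the additive model MUC1 was 0.21 and MUC6 0.85 between the lines. Leaving out 1 library gave ranges across 0 for MUC2 (-0.44 to 0.13 in AGS, -0.11 to 0.63 between the lines), MUC5AC (-0.78 to 0.37 between the lines, -0.54 to 0.61 for the difference) and MUC6 (-0.91 to 0.11 in AGS, -0.84 to 0.96 between the lines). MUC16 in AGS and HGC-27 passed the threshold under every alternative except the lines as in the titles. DESeq2 called 7.48% of all genes tested in AGS and 50.1% in HGC-27, against 15.0% and 63.0% with edgeR. It called 2 GALNT genes in AGS in place of 6, with no adjusted p for 7 of 14, and 5 in HGC-27 in place of 10. Of O-glycan extension it called 1 gene in AGS in place of 3 (no adjusted p for 4 of 13). In HGC-27 it called 3 genes of mucus-secreting cells in place of 5, and 1 further mucin in place of 3. A control could be left out only for the comparisons that do not use it. Depth limits the secreted mucins, MUC4, MUC12 and MUC20, whose counts were at most 184 per library.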
